A study of Mus musculus with 12 samples.

Results

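Chemokine receptors of macrophages are described here over genotype and stimulus. The members were taken as a list of 8 genes, *Ccr1*, *Ccr2*, *Ccr3*, *Ccr7*, *Cx3cr1*, *Cxcr4*, *Xcr1* and *Ccrl2*, and were found by the accession that the array design gives for each probe. They had 14 of the 41174 probes on the array, and they are 8 of the 32301 genes or transcripts measured. The cells were BMDMs, macrophages grown for 7 days with M-CSF from the bone marrow of 8-week-old C57BL/6 mice. They came from WT mice and from KpCKO mice (*Keap1* flox/flox::LysM-Cre), in which the Cre recombinase is expressed from the lysozyme M locus of myeloid cells and deletes *Keap1*, whose product holds the transcription factor Nrf2 at a low level. BMDMs of each genotype were left untreated (Con), stimulated with LPS and IFNγ (M1) or stimulated with IL-4 (M2), both for 6 h. The experiment was run in 2 cultures, the first with males and the second with females, and in each a single mouse of either genotype supplied the marrow, so that each of the 6 groups has 2 arrays. The 3 arrays of a genotype in a culture thus share 1 mouse.

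Chemokine receptors are membrane proteins of leukocytes that couple to inhibitory G proteins and steer migration along gradients of small secreted chemokines. *Ccr1*, *Ccr2* and *Ccr3* are receptors for inflammatory chemokines, *Ccr7* and *Xcr1* are known from dendritic cells, *Cxcr4* holds cells in the bone marrow through its ligand Cxcl12, and *Cx3cr1*, the fractalkine receptor, marks monocytes and many tissue macrophages. *Ccrl2* is an atypical relative that binds chemerin and does not signal through G proteins.

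Levels are log2 intensities relative to the 75th percentile of their array, so that 0 is the level of that percentile, and they can be compared between arrays for a probe but not between probes. The percentile itself was lowest in M1, at an intensity of 548 and 757 for WT and of 787 and 906 for KpCKO, with 966 to 1166 on the other arrays, and between 59.3% and 71.4% of probes were well above background. *Keap1* was lower in KpCKO by 1.46 to 1.81 on the log2 scale in the 3 conditions and *Nqo1*, a known Nrf2 target, was higher by 3.23 to 3.52, both in each culture. Con, M1 and M2 were hybridised on 1 slide each, and the M2 slide was scanned on another day than those of Con and M1, so that stimulus and slide, and for M2 the scan day, cannot be told apart, whereas the genotypes were compared within slides. All 6 macrophage markers with a probe were well above background in every group, with a summed signal of 375 to 804 in units of the percentile. In the same units the sums were 2.16 to 51.8 for dendritic cell markers, 2.44 to 59.9 for monocyte, 3.15 to 16.5 for neutrophil, 0.117 to 0.729 for eosinophil, 0.0384 to 3.18 for T cell, 0.178 to 0.977 for B cell, 0.0296 to 0.201 for NK cell and 0.133 to 0.290 for basophil and mast cell markers. Each sum adds different probes, and the lists differ in length. The sums can thus be compared between arrays for a list but do not measure the share of a cell type. On both WT Con arrays 6 of 7 neutrophil, 4 of 6 dendritic cell, 3 of 6 eosinophil and 3 of 3 monocyte markers were well above background. So were 3 of 5 T cell, 3 of 5 B cell, 3 of 5 basophil and mast cell and 1 of 5 NK cell markers. Markers of these cell types that were not well above background in any group were *Elane* among the neutrophil genes, *Epx* and *Il5ra* among the eosinophil genes, *Cd3d*, *Ms4a1*, *Pax5*, *Eomes*, *Gzma*, *Prf1* and *Ms4a2*.

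Of the 8 receptors, 7 were well above background on 12 of 12 arrays by their brightest probe and passed the filter for testing. *Ccr1*, a receptor for Ccl3 and Ccl5, was well above background on 1 of 12 arrays, that of WT Con in culture 2, and was not tested. Of the members, 6 lie on chromosome 9. *Xcr1* and *Ccr1* are neighbours there, as are *Ccr3* and *Ccr2*, while *Cx3cr1* lies next to *Ccr8* and *Ccrl2* between *Ltf* and *Lrrfip2*. *Cxcr4* lies on chromosome 1 and *Ccr7* on chromosome 11.

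The 250 bases before the start of 4 receptors are shown, those of *Ccrl2* and *Cxcr4*, which rose and fell most in M1 by their brightest probes, of *Cx3cr1*, which fell in both M1 and M2, and of *Xcr1*, which with *Ccrl2* differed between the genotypes. They come from RefSeq (GRCm38.p6) and are written 5′ to 3′ on the gene's strand. Capitals mark the antioxidant response element bound by Nrf2 (TGACNNNGC or TGAGNNNGC) and an NF-κB motif (GGG and CC with any 5 bases between them), each searched on both strands.
Ccrl2 (chr9:111057519-111057768, minus strand): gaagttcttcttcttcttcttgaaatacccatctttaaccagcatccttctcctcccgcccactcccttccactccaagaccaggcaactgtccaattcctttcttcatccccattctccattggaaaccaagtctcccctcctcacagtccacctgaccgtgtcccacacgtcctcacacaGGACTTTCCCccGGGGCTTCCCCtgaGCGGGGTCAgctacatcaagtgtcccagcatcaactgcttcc
Xcr1 (chr9:123862030-123862279, minus strand): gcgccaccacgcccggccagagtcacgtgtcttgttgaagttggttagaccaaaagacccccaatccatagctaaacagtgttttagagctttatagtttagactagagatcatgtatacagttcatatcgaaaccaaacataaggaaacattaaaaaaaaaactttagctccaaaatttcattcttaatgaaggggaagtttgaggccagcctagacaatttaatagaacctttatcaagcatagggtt
Cx3cr1 (chr9:120068297-120068546, minus strand): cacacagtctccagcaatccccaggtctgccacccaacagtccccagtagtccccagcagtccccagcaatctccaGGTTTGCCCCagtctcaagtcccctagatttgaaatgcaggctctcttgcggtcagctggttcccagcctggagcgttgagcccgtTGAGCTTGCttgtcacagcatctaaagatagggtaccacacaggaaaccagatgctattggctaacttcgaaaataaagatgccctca
Cxcr4 (chr1:128592300-128592549, minus strand): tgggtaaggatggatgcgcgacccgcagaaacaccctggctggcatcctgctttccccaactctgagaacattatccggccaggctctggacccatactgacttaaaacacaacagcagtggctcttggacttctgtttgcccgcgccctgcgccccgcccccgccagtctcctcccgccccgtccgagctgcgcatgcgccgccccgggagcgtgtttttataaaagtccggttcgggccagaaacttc
In the *Ccrl2* window, bases 42 to 34 before the start match the antioxidant response element, and bases 68 to 59, 56 to 47 and 55 to 46 match the NF-κB motif, the last 2 overlapping. This is the farthest upstream of 3 start sites of *Ccrl2*, and the windows of the other 2 hold neither motif. The *Cx3cr1* window holds 1 match to the antioxidant response element, bases 88 to 80, and 1 to the NF-κB motif, bases 174 to 165. The windows of *Xcr1* and *Cxcr4* hold neither. Over all 32851 windows of this length, 23.0% hold an antioxidant response element and 45.8% the NF-κB motif, so that a match is a common feature of promoters. Of the other members, the window of *Ccr3* holds 2 antioxidant response elements and 1 NF-κB motif, that of *Ccr2* 1 antioxidant response element and that of *Ccr1* 1 NF-κB motif. *Ccr7* was not matched.

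The first question was how the receptors responded to M1 stimulation in WT cells. *Ccrl2*, *Ccr7* and *Xcr1* rose, *Cxcr4*, *Cx3cr1* and *Ccr3* fell, and *Ccr2* did not pass the test. These are 6 of 7 receptors tested, against 63.2% of all genes tested (34.5% higher and 28.7% lower), so the share of members that changed is near that of the array as a whole, and the data on the receptors lie in the sizes. The median log2 difference of all genes between M1 and Con in WT was 0.13 and moved to −0.08 with quantile normalization and to 0.40 with normexp, shifts that are small beside the changes of *Ccrl2*, *Cxcr4* and *Cx3cr1*. In KpCKO the same 3 receptors rose and the same 3 fell, against 50.2% of all genes (24.8% higher and 25.4% lower). In these bulk cultures fewer cells with a receptor and less RNA per cell cannot be told apart.

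**Figure D1:**
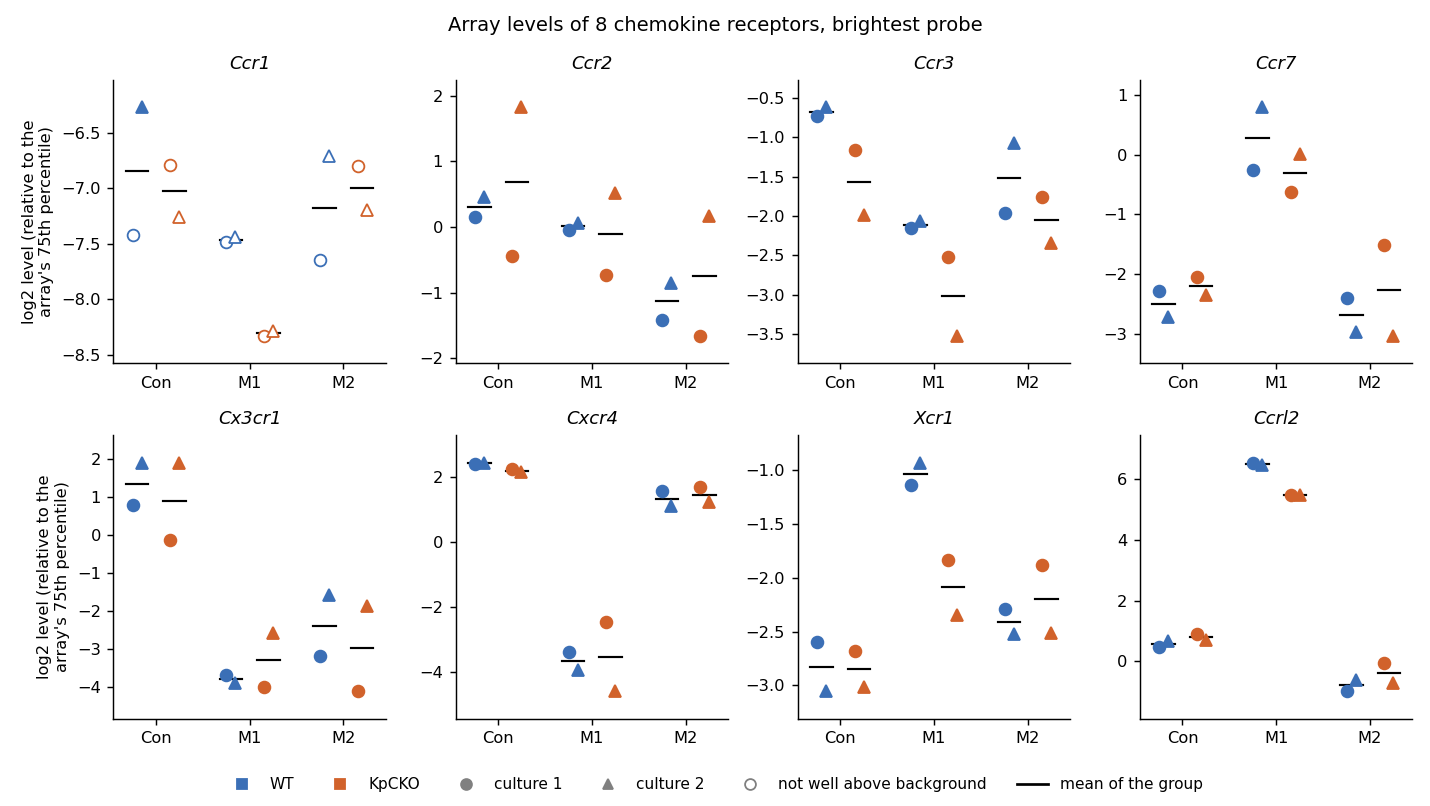
Log2 level of each of the 8 receptors by its brightest probe, relative to the 75th percentile of the array, in Con, M1 and M2 for WT (blue) and KpCKO (orange). Circles are culture 1, triangles culture 2, open symbols are not well above background and lines are group means of 2 arrays; the vertical axis differs between panels. *Ccrl2* lies between 5.48 and 6.55 in M1 and between −0.99 and 0.90 elsewhere, and *Cxcr4* lies between −4.58 and −2.46 in M1 and between 1.08 and 2.42 elsewhere.

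*Ccrl2* showed the largest rise among the receptors by their brightest probes. In WT it was at 0.45 and 0.67 in Con and at 6.55 and 6.48 in M1 (cultures 1 and 2), and in KpCKO at 0.90 and 0.69 in Con and at 5.48 on both M1 arrays. All 4 M1 arrays stood above all other arrays. The rise was 5.95 ± 0.23 on the log2 scale (SE, limma) in WT, which is 62.0-fold (adjusted p = 5.66e-06), and 4.68 ± 0.23 in KpCKO, which is 25.7-fold (adjusted p = 2.06e-05). A dimmer probe gave a rise of 5.86 in WT and 4.30 in KpCKO.

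*Xcr1*, the receptor of the lymphotactin Xcl1 and a marker of cross-presenting dendritic cells, rose as well. Its brighter probe was at −2.60 and −3.05 in WT Con and at −1.14 and −0.93 in WT M1, a rise of 1.79 ± 0.20 (3.46-fold, adjusted p = 0.000243). In KpCKO it was at −2.68 and −3.02 in Con and at −1.83 and −2.35 in M1, a rise of 0.76 ± 0.20 (1.69-fold, adjusted p = 0.0161). The groups did not overlap in either genotype. The adjusted p in KpCKO was 0.068 without the Con array of culture 1, 0.076 without that of culture 2 and 0.0884 without the M1 array of culture 1, in a range from 0.000158 to 0.0884 over the limma alternatives, and 0.0625 without the culture as a block. The dimmer probe of *Xcr1*, which passed the filter through M1 alone, gave a larger change than the brighter one. It was not well above background on any Con or M2 array, was at −2.18 and −1.07 in WT M1 and at −5.16 and −3.69 in KpCKO M1, and the rise from Con to M1 was thus at least 39.7-fold in WT and at least 6.53-fold in KpCKO. Such a bound sets the M1 mean against the lowest signal well above background on each Con array. Having passed through M1 alone, the dimmer probe had to be higher there, so its rise supports nothing. The 0.000158 at the low end of the range for KpCKO is also that of the dimmer probe in limma. The 2 probes disagree in the size.

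*Ccr7*, which guides dendritic cells and lymphocytes to lymph nodes, was at −2.29 and −2.72 in WT Con and at −0.25 and 0.79 in WT M1. In KpCKO it was at −2.04 and −2.35 in Con and at −0.63 and 0.02 in M1, so that every M1 array stood above every Con array. The rise was 2.77 ± 0.56 in WT (6.83-fold, adjusted p = 0.00417) and 1.89 ± 0.56 in KpCKO (3.71-fold, adjusted p = 0.0267). In KpCKO the adjusted p was 0.0898 and 0.116 without the Con array of culture 1 and of culture 2 and 0.164 without the M1 array of culture 2, within 0.018 to 0.164 over the limma alternatives.

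Because *Ccr7* and *Xcr1* are known from dendritic cells, the markers of these cells are given beside them. Of 7 markers 6 had a probe, and their summed signal was 2.16 and 2.68 in WT Con, 16.1 and 9.43 in KpCKO Con, 13.3 and 10.2 in M1 of WT, 27.5 and 17.7 in M1 of KpCKO, 33.3 and 44.7 in M2 of WT and 51.8 and 50.7 in M2 of KpCKO. The sum was lowest in WT Con and highest in M2, while the means of *Xcr1* and *Ccr7* were highest in M1. In M1, 4 of the 6 markers rose in WT and 3 in KpCKO, against 34.5% and 24.8% of all genes. In M2, 2 rose in WT and 1 in KpCKO, against 8.62% and 5.68%, and 0 fell in either condition. *Cd209a* and *Zbtb46* were not well above background in WT Con. In M1 *Zbtb46* was well above background on both arrays of each genotype, and *Cd209a* was not in either group. *Itgax*, which codes for CD11c and is also expressed by macrophages, was at 0.35 and 0.49 in WT Con and at 3.88 and 2.93 in KpCKO Con. It was the 1 marker of the 6 that was higher in KpCKO in Con and in M1. The sum is one of linear signal, and *Itgax* made up most of it on every Con array. The difference of the sum between the genotypes in Con is thus mostly that of this gene. The part of these cells in the receptor levels was not tested.

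*Cxcr4* fell most. It was at 2.39 and 2.42 in WT Con and at −3.38 and −3.95 in WT M1, and at 2.22 and 2.14 in KpCKO Con and −2.46 and −4.58 in KpCKO M1. The M1 arrays stood far below the Con arrays in each culture. The fall was 67.2-fold in WT, with a log2 difference of −6.07 ± 0.47 (adjusted p = 5.67e-05), and 52.1-fold in KpCKO, with −5.70 ± 0.47 (adjusted p = 0.000127). Its dimmer probe, well above background on 11 of 12 arrays, gave −6.28 and −5.55.

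*Cx3cr1* was at 0.81 and 1.91 in WT Con and at −3.67 and −3.90 in WT M1. In KpCKO it was at −0.12 and 1.91 in Con and at −3.99 and −2.56 in M1. No M1 array reached the level of a Con array. The log2 difference was −5.14 ± 0.54 in WT (35.3-fold lower, adjusted p = 0.000195) and −4.17 ± 0.54 in KpCKO (18.0-fold lower, adjusted p = 0.000764). A dimmer probe lost an outlier spot on the WT M1 array of culture 2 and was not well above background on the other, so that it was at least 7.78-fold lower in WT M1, and in KpCKO it differed by −2.37.

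*Ccr3*, the eotaxin receptor known from eosinophils, was at −0.74 and −0.62 in WT Con and at −2.16 and −2.06 in WT M1, and at −1.16 and −1.98 in KpCKO Con and −2.52 and −3.52 in KpCKO M1. Within each genotype the M1 arrays lay below the Con arrays. The log2 difference was −1.43 ± 0.44 in WT (adjusted p = 0.0241) and −1.45 ± 0.44 in KpCKO (adjusted p = 0.0287). These calls rest on single arrays, on the probe and on the background correction. A dimmer probe, not well above background in WT M1, was at least 1.93-fold lower there (adjusted p = 0.105) and differed by −1.78 in KpCKO (adjusted p = 0.0400), and with normexp the adjusted p was 0.0525 in WT and 0.0967 in KpCKO. Without any 1 of the 4 arrays compared the adjusted p in WT was between 0.0565 and 0.128, and in KpCKO it reached 0.166 when the Con array of culture 1 was left out and 0.181 when the M1 array of culture 2 was, the highest over the limma alternatives, which began at 0.0119 in WT and 0.0159 in KpCKO. Of the 6 eosinophil markers, 3 were well above background on both arrays of each group except WT M1, where 2 were. *Epx* and *Il5ra* were not well above background in any group, and *Prg3* was not in Con or M1.

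*Ccr2*, the receptor of Ccl2 that brings monocytes out of the bone marrow, was at 0.16 and 0.45 in WT Con and at −0.04 and 0.06 in WT M1. In KpCKO it was at −0.45 and 1.83 in Con and at −0.74 and 0.52 in M1. The cultures differed more than the conditions in KpCKO. The log2 difference between M1 and Con was −0.29 in WT (95% interval −1.56 to 0.97, adjusted p = 0.651) and −0.80 in KpCKO (−2.06 to 0.46, adjusted p = 0.251). *Ccr1* was at −7.43 and −6.27 in WT Con and between −8.33 and −6.71 on the other arrays, none of which was well above background.

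IL-4 stimulation was compared with Con in the same way. In WT 2 of 7 receptors changed, *Ccrl2* and *Cx3cr1*, both lower, against 16.8% of all genes (8.62% higher and 8.2% lower), and in KpCKO the same 2 were lower, against 10.2% of all genes (5.68% higher and 4.54% lower). *Ccrl2* was at −0.99 and −0.61 in WT M2 and at −0.06 and −0.73 in KpCKO M2, below Con in each genotype, where M1 had raised it. The log2 difference was −1.37 ± 0.23 in WT (adjusted p = 0.0114) and −1.19 ± 0.23 in KpCKO (adjusted p = 0.0265). *Cx3cr1* was at −3.18 and −1.57 in WT M2 and at −4.10 and −1.85 in KpCKO M2, with a log2 difference of −3.73 ± 0.54 in WT (13.3-fold lower, adjusted p = 0.00652) and −3.87 ± 0.54 in KpCKO (14.6-fold lower, adjusted p = 0.00918). The difference was −3.99 and −3.48 in the 2 cultures of WT and −3.98 and −3.76 in those of KpCKO, and the dimmer probe gave mean differences of −2.33 and −2.17, so that both probes fell and the sizes differ.

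**Figure D2:**
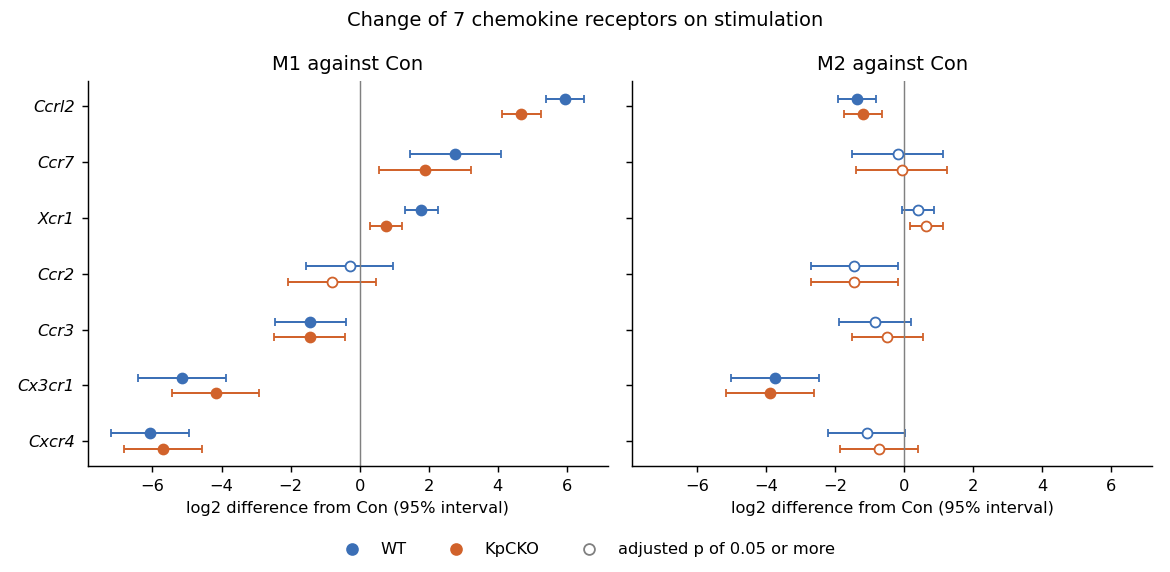
Log2 difference from Con in M1 (left) and M2 (right) of the 7 receptors tested, with the 95% interval of the limma fit, for WT (blue) and KpCKO (orange). Filled points passed an adjusted p of 0.05 and open points did not. In M1 *Ccrl2* lies at 5.95 and 4.68 and *Cxcr4* at −6.07 and −5.70, whereas in M2 *Cx3cr1* lies farthest from 0, at −3.73 and −3.87.

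The M2 calls were close to the threshold. For *Ccrl2* in WT the adjusted p was 0.052 and 0.0882 without the Con array of culture 1 and of culture 2 and 0.0737 without the M2 array of culture 1 (range over the limma alternatives 0.00616 to 0.0882), and in KpCKO it was 0.132 and 0.113 without the Con array of culture 1 and of culture 2 and 0.11 without the M2 array of culture 2 (range 0.0152 to 0.132). For *Cx3cr1* it was 0.0551 in WT without the Con array and 0.0506 without the M2 array of culture 1 (range 0.00141 to 0.0569), and in KpCKO 0.0749 without the Con array of culture 2 and 0.053 without the M2 array of culture 1 (range 0.00236 to 0.0749). Without the culture as a block *Cx3cr1* did not pass, with an adjusted p of 0.0569 in WT and 0.0723 in KpCKO.

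The other receptors did not pass the test in M2. *Ccr2* had a log2 difference of −1.44 in WT (95% interval −2.70 to −0.17, adjusted p = 0.114) and −1.43 in KpCKO (adjusted p = 0.142), from −1.41 and −0.85 in WT M2 and −1.66 and 0.17 in KpCKO M2. *Cxcr4* was at 1.57 and 1.08 in WT M2 and at 1.69 and 1.21 in KpCKO M2, with differences of −1.08 (adjusted p = 0.166) and −0.73 (adjusted p = 0.376), small beside its fall in M1. *Ccr3* differed by −0.84 and −0.48, *Xcr1* by 0.42 and 0.65 and *Ccr7* by −0.18 and −0.07 in WT and KpCKO. *Xcr1* was at −2.29 and −2.53 in WT M2 and at −1.88 and −2.51 in KpCKO M2, and *Ccr7* at −2.40 and −2.97 and at −1.51 and −3.03.

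The next question was whether the receptors differed between the genotypes. In M1, *Ccrl2* and *Xcr1* were lower in KpCKO, 2 of 7 receptors, against 16% of all genes (8.58% lower and 7.43% higher). With quantile normalization, which turned the split of all genes from 46.4% higher among those called to 60.0% higher, both receptors kept their sign and *Ccrl2* missed the threshold. The median of all genes in this comparison was −0.09, with 0.0044 after quantile normalization and −0.22 with normexp. *Ccrl2* was lower by 1.07 in culture 1 and by 1.0 in culture 2, with a mean log2 difference of −1.03 ± 0.23 (2.05-fold, adjusted p = 0.0317), and its dimmer probe gave −1.24 (adjusted p = 0.0139). The 2 KpCKO M1 arrays stood below both WT M1 arrays by both probes. *Xcr1* differed by −1.05 ± 0.20 by its brighter probe (2.08-fold lower, adjusted p = 0.0183) and by −2.80 by its dimmer one (adjusted p = 0.00747), which again disagree in size. In the plot of both probes the order of the groups in M1 is the same for each.

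**Figure D3:**
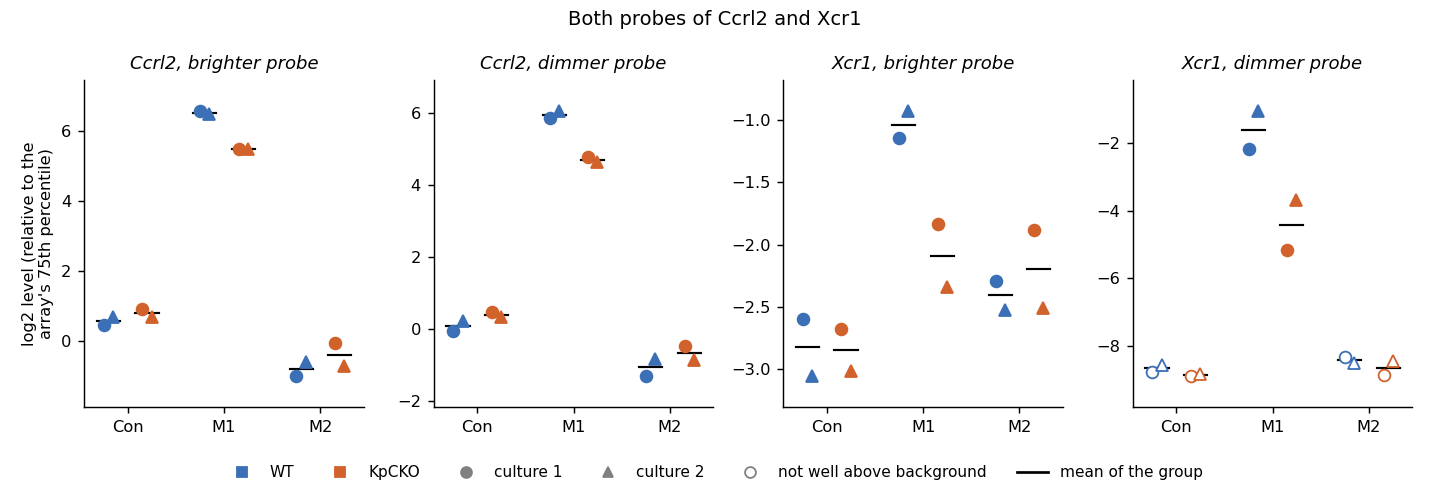
Log2 level of both probes of *Ccrl2* and *Xcr1*, relative to the 75th percentile of the array, in Con, M1 and M2 for WT (blue) and KpCKO (orange); circles are culture 1, triangles culture 2, open symbols are not well above background and lines are group means of 2 arrays. In M1 each KpCKO array lies below each WT array in all 4 panels, by a mean of 1.03 and 1.24 for *Ccrl2* and of 1.05 and 2.80 for *Xcr1* on the log2 scale.

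Both calls in M1 depended on the processing and on single arrays, although the sign did not. For *Ccrl2* the adjusted p was 0.0761 and 0.121 without the WT M1 array of culture 1 and of culture 2 and 0.144 and 0.0818 without the KpCKO M1 arrays, and with quantile normalization the difference was −0.76 (adjusted p = 0.0735) and with a normexp background correction −0.72 (adjusted p = 0.181, the highest over the limma alternatives, which began at 0.0139). For *Xcr1* it came to 0.0556 if the WT M1 array of culture 2 was left out, 0.0699 and 0.0656 if either M1 array of KpCKO was, 0.0616 with normexp and 0.0708 without the culture as a block, within a range of 0.00561 to 0.183.

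The other 5 receptors did not pass the test between the genotypes in M1. *Ccr3* was lower on both KpCKO arrays than on either WT array, with a log2 difference of −0.91 (95% interval −1.94 to 0.12, adjusted p = 0.188), and *Ccr7* differed by −0.58 (−1.90 to 0.74). *Cx3cr1* at 0.51 (−0.76 to 1.78), *Cxcr4* at 0.14 (−0.98 to 1.26) and *Ccr2* at −0.12 (−1.39 to 1.14) overlapped between the genotypes. The test without the WT M1 array of culture 1 called *Cx3cr1* higher in KpCKO (1.46, adjusted p = 0.0432) and leaving out the M1 array of KpCKO in culture 2 called *Cxcr4* higher (1.04, adjusted p = 0.0395), and over the limma alternatives their highest adjusted p was 0.981 and 0.918.

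**Figure D4:**
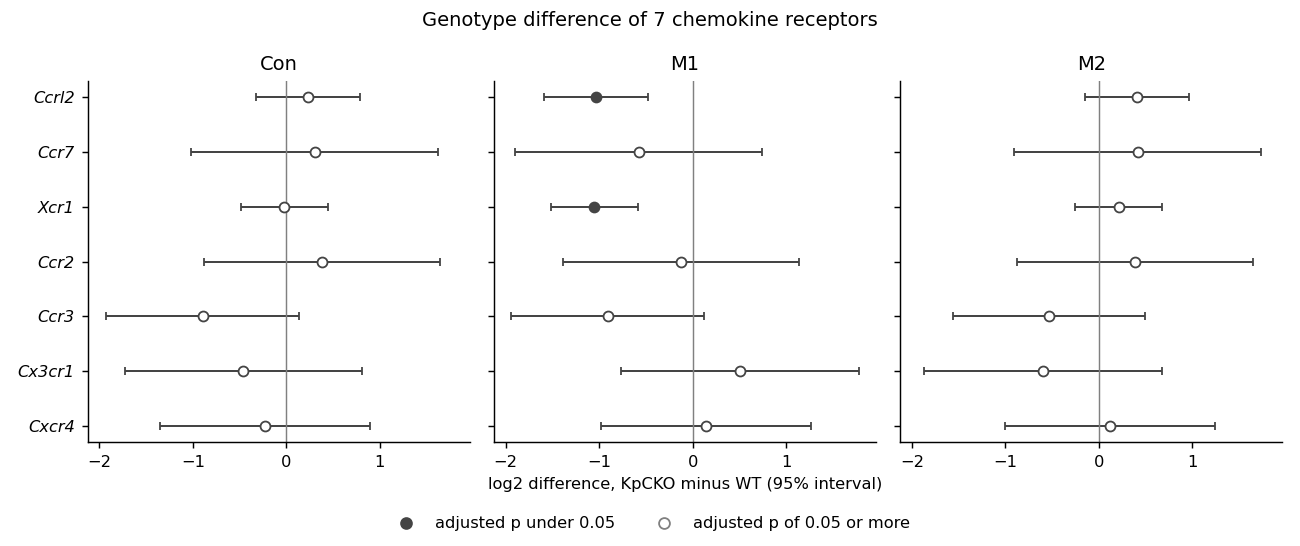
Log2 difference, KpCKO minus WT, of the 7 receptors tested in Con, M1 and M2, with the 95% interval of the limma fit. Filled points passed an adjusted p of 0.05 and open points did not; *Ccrl2* (−1.03) and *Xcr1* (−1.05) in M1 are the filled ones.

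In Con 0 of 7 receptors differed between the genotypes by limma's test, against 2.22% of all genes (1.39% higher and 0.827% lower), and in M2 0 of 7 did, against 1.93% (1.28% higher and 0.644% lower). None reached an unadjusted p under 0.05 in limma in either condition, against 14.1% of all genes in Con and 14.3% in M2. The methods' t-test at that level called 1 receptor in Con, *Cxcr4*, and 0 in M2. Over all genes it called 1618 of 22317 in Con and 1740 of 22201 in M2. *Ccrl2* differed by 0.24 in Con (95% interval −0.32 to 0.79) and by 0.41 in M2 (−0.14 to 0.97), and *Xcr1* by −0.02 (−0.49 to 0.44) and 0.21 (−0.25 to 0.68). The largest differences of the others were those of *Ccr3* in Con, −0.89 (adjusted p = 0.434), and of *Cx3cr1* in M2, −0.60 (adjusted p = 0.702).

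Whether the response itself differed was tested as the M1 minus Con difference of KpCKO minus that of WT. For *Ccrl2* this was −1.52 in culture 1 and −1.02 in culture 2, with a mean of −1.27 ± 0.33 (adjusted p = 0.173, unadjusted p = 0.00662), and for *Xcr1* −0.61 and −1.46, with a mean of −1.03 ± 0.28 (adjusted p = 0.179, unadjusted p = 0.00761). Thus 0 of 7 receptors passed, against 0.0716% of all genes (0.0447% higher and 0.0268% lower), and 2 of 7 had an unadjusted p under 0.05, against 16.4%. Without the WT M1 array of culture 1 *Xcr1* passed (−1.35, adjusted p = 0.0319, the lowest in a range that ended at 0.613). In the M2 response 0 of 7 passed, against 0.00894% of all genes, and 0 had an unadjusted p under 0.05, against 2.02%.

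The 2 cultures were compared last. In KpCKO, *Ccr2* was higher in culture 2 than in culture 1 by 2.27, 1.26 and 1.82 on the log2 scale in Con, M1 and M2, against 0.29, 0.10 and 0.56 in WT. These differences in KpCKO lie beyond the 95th percentile of 12110 genes on the same arrays, 0.714, 0.785 and 0.715. In WT this percentile was 0.467, 0.660 and 0.550 in Con, M1 and M2. There *Ccr2* lay just beyond it in M2 only, and *Cx3cr1* lay beyond it in Con and M2, so such differences were not confined to KpCKO. A dimmer probe of *Ccr2* gave 1.99, 0.98 and 1.63 in KpCKO. *Cx3cr1* was higher in culture 2 as well, by 2.03, 1.43 and 2.25 in KpCKO and by 1.1, −0.22 and 1.62 in WT, but its dimmer probe gave 1.77, −0.14 and 0.10 in KpCKO, so that the probes disagree in M1 and M2, while *Ccr3* in KpCKO differed by −0.82, −1.0 and −0.58. Among the 3 monocyte markers, *Ly6c2* was higher in culture 2 by 1.81, 1.66 and 1.68 in KpCKO and by 0.57, 0.70 and 0.94 in WT, *F13a1* by 1.04, 0.61 and 0.41 in KpCKO, with −0.21, −0.86 and −0.64 in WT, and *Plac8* by 0.20 to 0.70 in all 6 groups. The summed signal of the monocyte markers in culture 1 and culture 2 was 6.49 and 7.66 in WT Con, 3.29 and 6.74 in KpCKO Con, 31.5 and 48.2 in M1 of WT, 20.3 and 59.9 in M1 of KpCKO, 4.54 and 5.34 in M2 of WT and 2.44 and 4.24 in M2 of KpCKO, and all 3 markers were well above background on both arrays of every group. Their part in the levels of *Ccr2* and *Cx3cr1* was not tested, and the culture, the sex and the mouse cannot be told apart.

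Other chemokine receptors were measured beside the members, and 8 of 15 passed the filter. In WT M1, 4 of the 8 were called higher and 1 lower, 62.5% against 63.2% of all genes, a count at the level of the whole array. *Ccr9*, a receptor of gut-homing cells, rose by 2.16, *Ackr2*, a scavenging receptor, by 0.89 and *Ccr6* by 0.82, while *Cxcr6* fell by 1.06. *Cxcr5* was at least 5.70-fold higher, but it passed the filter through WT M1 alone, so that it had to differ there and its call supports nothing. It is 1 of the 4 counted as higher. *Cxcr3* (−0.97), *Ackr1* (0.75) and *Cxcr2* (0.21) did not pass. In WT M2 only *Cxcr2*, known from neutrophils, passed, 1 of the 8 against 16.8% of all genes, and it rose by 3.14. In KpCKO M1 *Ccr9* (1.2) and *Ackr2* (0.70) rose and *Cxcr3* (−1.42) and *Cxcr6* (−0.87) fell, against 50.2% of all genes. *Cxcr5* was at least 3.05-fold higher there, on 1 array above background of 2. In KpCKO M2 0 of the 8 passed, against 10.2% of all genes. There 3 had an unadjusted p under 0.05 in limma, against 27.1%. Between the genotypes 0 of the 8 passed in Con, M1 or M2, with 2, 0 and 1 at an unadjusted p under 0.05 in limma, against 14.1%, 34.1% and 14.3% of all genes. The 8 receptors had a median log2 difference of −0.43 in M1, the 7 members −0.58 and all genes −0.09. The median of the 8 includes *Cxcr5*, which the filter favoured where it is high in WT M1, so nothing is drawn from it.

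The ligands of the 8 receptors were on a list of 17, of which 14 passed the filter, and *Ccl11*, *Ccl21a* and *Xcl1*, the ligand of *Xcr1*, did not. In WT M1 12 of the 14 rose and 2 fell, against 34.5% and 28.7% of all genes. *Ccl12* rose by 8.49 on the log2 scale, *Ccl5* by 7.39, *Ccl8* by 4.97, *Ccl24* by 4.49 and *Ccl2* by 4.0, whereas *Cxcl12*, the ligand of *Cxcr4*, fell by 1.67 and *Ccl6* fell by 0.90. Both *Cxcr4* and its ligand were thus lower in M1, in WT and in KpCKO, where *Cxcl12* fell by 1.46. *Rarres2*, which codes for the chemerin that *Ccrl2* binds, rose by 1.40 in WT M1, and *Cx3cl1*, the ligand of *Cx3cr1*, rose by 2.22, as the receptor fell. *Ccl19*, a ligand of *Ccr7*, rose by 1.34, the *Ccr1* ligand *Ccl9* by 1.12 and *Ccl3*, *Ccl7* and *Ccl4* by 3.06, 3.0 and 2.97. The sizes depend on the probe. A dimmer probe of *Ccl19* had a mean of −6.77 in WT Con, not well above background, and of −1.76 in WT M1. A dimmer probe of *Cxcl12* had a mean of −2.48 in WT Con and of −3.36 in WT M1. In WT M2 4 of the 14 rose (8.62% of all genes did), *Ccl24* (5.53), *Ccl7* (3.52), *Ccl12* (3.33) and *Ccl2* (2.92), and 0 fell. In KpCKO 10 rose and 2 fell in M1, against 24.8% and 25.4% of all genes, and 5 rose in M2, against 5.68%.

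In KpCKO M1, 6 of the 14 ligands were lower than in WT M1 and 0 were higher, against 8.58% and 7.43% of all genes. The alternative settings were examined for the members and not for the ligands, other receptors or signalling genes, whose calls rest on a single fit. *Ccl12* differed by −2.90, *Ccl4* by −2.51, *Ccl3* by −2.08, *Ccl8* by −1.66, *Ccl7* by −1.66 and *Ccl2* by −1.12, each with the same sign in both cultures. Of these, *Ccl2*, *Ccl7* and *Ccl12* are ligands of *Ccr2*, whose own difference was −0.12. *Ccl3*, a ligand of *Ccr1*, was at 6.06 and 6.74 in WT M1 and at 4.05 and 4.59 in KpCKO M1. The other 8 ligands did not pass, among them *Ccl5* (−0.49), *Rarres2* (−0.68) and *Ccl24* (−1.69). The median over the 14 ligands was −0.90 in M1, −0.47 in Con and −0.59 in M2, where 3 ligands each were lower, *Ccl12*, *Ccl4* and *Ccl8* in Con and *Ccl2*, *Ccl7* and *Ccl8* in M2, against 0.827% and 0.644% of all genes. *Ccl12* was not well above background on the KpCKO Con array of culture 1. In the M1 response 0 of the 14 ligands and 0 of the 8 other receptors passed, with 4 and 3 at an unadjusted p under 0.05, against 16.4% of all genes.

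**Figure D5:**
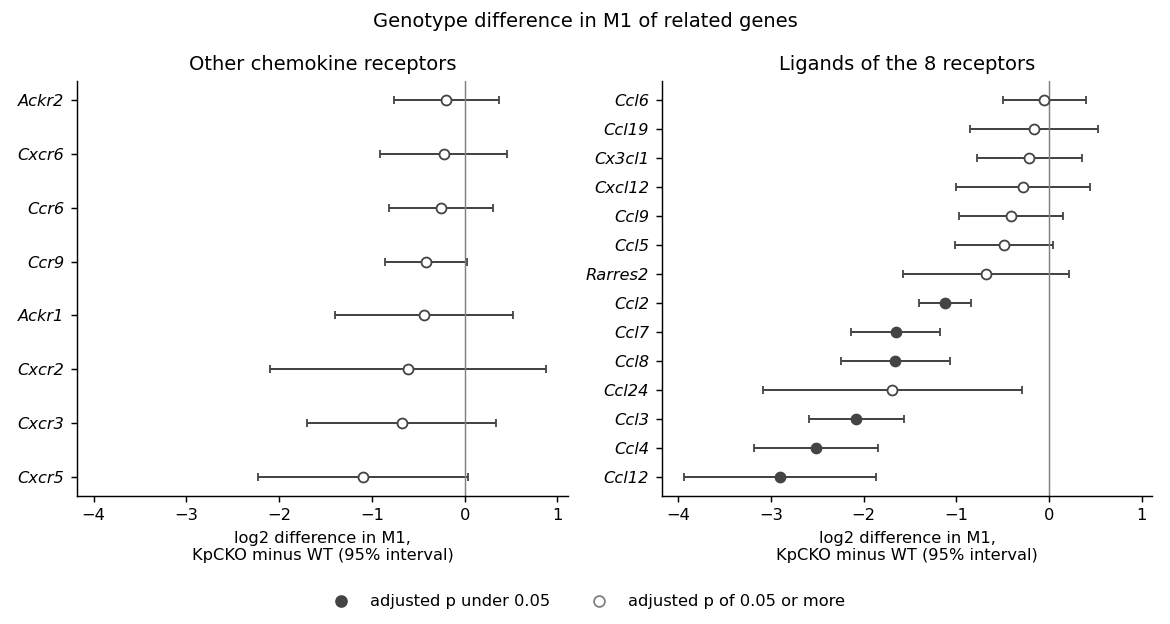
Log2 difference in M1, KpCKO minus WT, of the 8 other chemokine receptors (left) and the 14 ligands (right) tested, with the 95% interval of the limma fit. Filled points passed an adjusted p of 0.05. They are 6 ligands between −2.90 and −1.12, and no point lies above 0. *Cxcr5*, on the left, passed the filter through WT M1 alone, so its place below 0 supports nothing.

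Of 33 genes of signalling proteins downstream of these receptors, such as G protein subunits and kinases, 32 were tested. In WT M1 14 rose and 6 fell, which is 62.5% of them against 63.2% of all genes, so the count is at the level of the whole array. *Grk3*, a kinase of activated receptors, rose by 2.95, the small GTPase *Rap1b* by 2.02 and the G protein regulator *Rgs1* by 1.76, and its relatives *Rgs18* and *Rgs2* fell by 3.64 and 2.41 and the gamma subunit *Gng2* by 1.23. In KpCKO M1 12 rose and 7 fell (50.2% of all genes were called), led by *Grk3* (2.86), *Rgs1* (1.61) and *Rap1b* (1.46) and by *Rgs18* (−3.08), *Rgs2* (−2.36) and *Plcb2* (−1.10). In WT M2, where 16.8% of all genes were called, 2 rose, *Tiam1* (3.1) and *Fgr* (2.57), and 5 fell, most of all *Gng2* (−1.50), *Grk5* (−1.45) and *Elmo1* (−1.23), and in KpCKO M2 *Tiam1* rose by 2.54 and 5 fell, against 10.2% of all genes. Between the genotypes 3 were lower in KpCKO M1, *Rap1b* (−0.89), *Rgs1* (−0.86) and *Gnb2* (−0.37), against 8.58% of all genes that were lower, and 0 differed in Con or M2 by limma, with 7 and 5 of 32 at an unadjusted p under 0.05, against 14.1% and 14.3% of all genes.

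Genes with the most similar pattern were sought for each of the 7 receptors among 12109 genes with a symbol that were well above background on 12 of 12 arrays, by Pearson's r over the 12 arrays, which share mice, slides and scaling. The highest were *Lyl1* (r = 0.997), *Neurl2* and *Pola1* for *Cxcr4*, *Fzd1* (0.997), *Stat3* and *Prdx5* for *Ccrl2*, *Gigyf1* (0.981), *Gpr152* and *Olfr1339* for *Xcr1*, and *1700020L24Rik* (0.981), *Gosr1* and *Odf4* for *Ccr7*. For *Cx3cr1* they were *Arap3* (0.976), *Card6* and *Camsap3*, for *Ccr3* *Mrps6* (0.933), *Cldn34c1* and *Zcchc14*, and for *Ccr2* *Prss16* (0.930), *Fxyd5* and *Zfp467*. *Cxcr4* and *Ccrl2*, whose M1 arrays lie far from the rest, had the highest values, and *Ccr2* and *Ccr3* the lowest. The reason for this order was not tested.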

How the data were processed

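For 12 one-colour arrays the authors deposited Agilent Feature Extraction 10.7.3.1 output, whose intensity values are background-subtracted and not scaled between arrays. They also deposited a matrix of log2 values, which served as an alternative. Levels are means over the spots of a probe, outlier spots left out, as log2 intensity minus that of the array's 75th percentile. Of 41174 probes 26690 were matched by accession to 18217 symbols of RefSeq (GRCm38.p6), which was used for names, neighbours and promoter sequence. The brightest probe stood for a gene. In limma 3.58.1 (R 4.3.3) 22367 genes, each well above background on the 2 arrays of some group, were fitted with 6 groups and the culture as a block, with 5 residual and 1.92 prior degrees of freedom, and p was adjusted by Benjamini-Hochberg over all genes tested. With 2 arrays a group, the number of arrays limits the precision, and an exact test of 2 against 2 cannot go below p = 0.333, so none is given.

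The pairing by culture comes from the series' description. Deviations from the group means over 17176 genes correlated between groups of a culture at r = 0.268 to 0.724 in 15 pairs (median 0.505). The members and the lists of ligands, other receptors, signalling proteins and cell markers were chosen with earlier results of these data known. Some genes of these lists are not reported here. The genes named are the members, *Keap1*, *Nqo1*, the receptors and ligands that passed the filter, up to 3 signalling genes that rose and 3 that fell most, the 3 genes most like each member, and markers. Alternatives were quantile normalization, normexp with an offset of 50, the authors' matrix, no filter or one on all 12 arrays, a floor at background, averaging all probes of a gene, no culture block, the mouse as a random block, only the groups compared, the methods' t-test, leaving out each array and, added after seeing the data, each probe on its own. Plots used matplotlib 3.10.9 under Python 3.11.15, and tables pandas 2.3.3.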

Additional observations from a re-analysis of the deposited data

How the results depend on the processing

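Of the receptors called in M1, *Ccrl2*, *Cxcr4* and *Cx3cr1* in both genotypes and *Xcr1* and *Ccr7* in WT passed under every limma alternative, while the calls in M2 and between the genotypes did not. The number of receptors called in M1 was 3 in WT and 0 in KpCKO by the methods' t-test after adjustment, and 3 in KpCKO before it. In WT M2 it was 1 without the replicate block by culture, 4 with only the groups compared (*Cxcr4* and *Ccr2* in addition) and 0 by the adjusted t-test. In KpCKO M2 it was 1 with normexp, 1 with no filter, 1 without the replicate block, 0 with only the groups compared and 0 by the t-test, adjusted or not. Between the genotypes the unadjusted t-test called 1 in Con. In M1 the number was 1 with quantile normalization, no filter or no replicate block, 0 with normexp, only the groups compared or the adjusted t-test, and 1 by the unadjusted t-test. Leaving out 1 array gave 5 calls in WT M1, 3 to 5 in KpCKO M1, 0 to 2 in WT M2, 0 to 1 in KpCKO M2, 0 to 2 between the genotypes in M1 and 0 to 1 in the M1 response. The cause of these changes was not tested. Over all genes the number called in M1 was 14129 in WT and 11229 in KpCKO, and 9298 and 6951 with normexp. For M2 it was 3764 in WT and 2286 in KpCKO, with 2365 and 1232 without the filter, 1714 and 895 without the replicate block, 1674 and 690 with normexp, 1 in KpCKO with only the groups compared, and 928 to 1167 and 489 to 817 without 1 array. The genotypes differed in 497 genes in Con, in 3579 in M1 and in 431 in M2, which became 191, 1191 and 193 without the replicate block, 170, 915 and 225 with normexp, 0 in each with only the groups compared and as few as 96, 837 and 67 without 1 array, and 259 in Con and 238 in M2 without the filter. With only the groups compared, 4394 of all genes were called in WT M2. Between the genotypes in M1 the number was 3382 with quantile normalization and 2620 without the filter. The methods' t-test called 2934 after adjustment in WT M1, 2 in WT M2 and 0 in the other comparisons it was run on. Before adjustment it called 6528 in KpCKO M1, 2554 in KpCKO M2 and, between the genotypes, 1618 in Con, 2729 in M1 and 1740 in M2. The M1 response had 16 genes, and between 0 and 537 over the limma alternatives, and the M2 response 2, and between 0 and 2.

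The signs that turned belong to differences that did not pass the test. With normexp the log2 difference was 0.11 for *Ccr3* in the M1 response, 0.18 for *Ccr7* in WT M2, and between the genotypes −0.0012 for *Ccr7* in M2, −0.063 for *Cxcr4* in M1, 0.015 for *Xcr1* in Con and −0.14 for *Xcr1* in M2. With the mean of all probes it was −0.011 for *Cx3cr1* in M1 and −0.011 for *Xcr1* in M2, both between the genotypes. Over the settings that leave out 1 array, *Ccr2* ranged from −0.86 to 0.28 in WT M1, and between the genotypes from −0.35 to 1.12 in Con, −0.69 to 0.45 in M1, −0.074 to 0.85 in M2 and −1.24 to 0.23 in the M1 response. *Ccr3* ranged from −1.19 to 0.13 between the genotypes in M2 and from −0.49 to 0.45 in the M1 response. *Ccr7* ranged from −0.41 to 0.042 in WT M2, −0.87 to 0.73 in KpCKO M2, and between the genotypes from −1.32 to 0.16 in M1 and −0.38 to 1.21 in M2. Between the genotypes *Cx3cr1* ranged from −0.45 to 1.46 in M1, *Cxcr4* from −0.62 to 0.16 in Con, −0.76 to 1.04 in M1 and −0.53 to 1.27 in the M1 response, and *Xcr1* from −0.10 to 0.057 in Con.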
